A study of Mus musculus with 4 samples.

Results

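The genes described here were the 6 conventional actins of the mouse (Actb, Actg1, Acta1, Acta2, Actc1 and Actg2) and 4 actin-like genes, of which Actl7a, Actl7b and Actl9 are known for their expression in testis and Actl6a encodes a nuclear protein. They were taken by name: the 10 symbols were looked up in GENCODE M21, the mouse annotation on the GRCm38 assembly, and the matching identifiers were found in the deposited tables, 10 of 55364 genes. The series compared RNA-seq libraries of pachytene spermatocytes, the germ cells that pair and recombine their chromosomes in meiosis. One genotype was WT, wild type, and the other was labelled DDX4 homozygous knock-in and is called KK. Each genotype had 2 libraries. Ddx4 encodes an RNA helicase of the germline, and the title of the series sets the model in work on germ granules that form by phase separation. Both groups came from testes digested in a pair of enzyme steps, with the cells fractionated by centrifugal elutriation. No agent was given to either group in the labels, and the age of the mice, their strain and the number of mice per library are not stated in these sources.

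Actin monomers assemble into filaments that shape cells and carry myosin movement. The cytoplasmic actins, beta (Actb) and gamma (Actg1), are made in nearly every cell, while Acta1, Acta2, Actc1 and Actg2 encode the skeletal, vascular smooth muscle, cardiac and enteric smooth muscle forms. ACTL7A, ACTL7B and ACTL9 are actin-like proteins of male germ cells; ACTL7A and ACTL9 are known from the region between acrosome and nucleus in spermatids, where they help to anchor the acrosome. ACTL6A, also called BAF53A, is a subunit that the SWI/SNF, INO80 and TIP60 chromatin complexes share.

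The 6 actins are close copies, and their sequences are shown because short reads can match more than 1 of them. The first 45 coding bases of both cytoplasmic actins, from GENCODE M21 on GRCm38, are written here from 5′ to 3′ with capitals at the 9 positions where they differ from each other. The Actb stretch lies at chr5:142905642-142905686 and the Actg1 stretch at chr11:120348047-120348091, both on the minus strand, and they hold the part of the protein in which beta and gamma actin differ.
Actb: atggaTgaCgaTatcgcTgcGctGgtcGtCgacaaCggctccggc
Actg1: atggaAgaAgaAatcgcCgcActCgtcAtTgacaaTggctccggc
The last 60 coding bases, stop codon included, show how close all 6 genes stay to each other. Capitals mark the bases that differ from Actg1, which has its stretch at chr11:120346390-120346449. The others lie at chr5:142903798-142903857 (Actb), chr8:123892009-123892068 (Acta1), chr19:34241667-34241726 (Acta2), chr2:114047466-114047525 (Actc1) and chr6:83512985-83513044 (Actg2), all on the minus strand.
Actg1: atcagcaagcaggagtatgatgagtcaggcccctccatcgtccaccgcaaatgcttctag
Actb: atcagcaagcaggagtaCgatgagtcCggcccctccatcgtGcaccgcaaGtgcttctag
Acta1: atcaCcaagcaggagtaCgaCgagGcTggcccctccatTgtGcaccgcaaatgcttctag
Acta2: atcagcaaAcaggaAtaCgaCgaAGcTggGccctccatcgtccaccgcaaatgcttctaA
Actc1: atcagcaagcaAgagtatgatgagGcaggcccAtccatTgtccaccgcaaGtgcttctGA
Actg2: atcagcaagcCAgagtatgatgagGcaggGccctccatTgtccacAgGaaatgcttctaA
Actb differed from Actg1 at 4 of these 60 positions, Acta1 and Actc1 at 7, Actg2 at 8 and Acta2 at 9. Over 1098 coding bases aligned from the stop codon, the identity between any pair of the 6 ran from 82.4% to 89.1%, with Actb and Actg1 the most alike. The longest run of bases shared by the transcripts of 2 actins was 77, between Actb and Acta1, and the other pairs shared runs of 23 to 62. The actin-like genes of the testis stood apart, with shared runs of 13 bases between Actl7a and Actl7b, 11 between Actl7a and Actl9 and 16 between Actl7b and Actl9. The expected counts of Acta1, Acta2, Actb, Actc1, Actg2, Actl7a and Actl9 were whole numbers (within 0.005) in 4 of 4 libraries. Those of Actg1, Actl6a and Actl7b were whole in 0 of 4, so a share of their reads had been divided with other genes.

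The libraries held 17970207 to 19438570 expected counts each. Ddx4, the gene of the knock-in, had 264.96 and 272.92 TPM (a level per transcript length, scaled to the library) in WT and 54.44 and 52.49 in KK, 5.05-fold lower in KK (log2 fold change −2.34 ± 0.04 SE, adjusted p = 6.8e-27). Of 16571 genes with enough counts to test, 7237 (43.7%) passed at an adjusted p below 0.05, 3648 (22.0%) higher and 3589 (21.7%) lower in KK. The median over all of them was 0.003 on the log2 scale. These shares are the background for the counts of each gene list below. With library size in place of TMM scaling 4521 were higher and 2516 lower. All 18 pachytene markers found were above 0 in each library. Their summed level was 14300 CPM (counts scaled to the library total) in WT and 13200 to 13300 in KK. Of these 18 markers 1 rose and 9 fell, with a median log2 fold change of −0.11. Lower in KK were Mybl1 (1.56-fold) and Piwil1 (1.5-fold), and the marker that rose was Spag6 (1.76-fold). The largest part of the sum was Ldhc, chosen after its value was seen, which did not pass (5770 CPM in WT, 5730 in KK). Markers of other cells were also present. Leydig cell markers summed to 236 to 250 CPM in WT and 728 to 737 in KK, and 9 of 10 rose. Sertoli markers summed to 159 to 162 CPM in WT and 196 to 200 in KK, but of 11 tested 2 rose and 3 fell, with a median log2 fold change of −0.21. Clu (97.9 and 97.4 CPM) and Ptgds, which rose from 26.7 to 71.9 CPM, held most of that sum. Without WT replicate 1 or KK replicate 1, 1 of them rose and 1 fell. Spermatogonial markers summed to 125 to 126 CPM in WT and 125 to 136 in KK, while of 12 tested 7 rose and 1 fell, with a median log2 fold change of 1.12. Id4, which holds most of that sum, fell from 93.4 to 70.1 CPM, whereas Stra8 rose 2.68-fold and Sohlh1 3.42-fold. Clu and Ptgds were chosen after their values were seen. Spermatid genes summed to 7540 to 7560 CPM in WT and 6400 to 6480 in KK. Macrophage and immune markers were low, at 5.39 to 5.99 CPM in WT and 7.77 to 9.69 in KK. Their part in the results below was not tested, and fewer cells of a type and less RNA per cell cannot be told apart in bulk RNA.

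Of the 10 genes, 8 had enough counts to be tested. Acta2, Actb, Actl7a and Actl7b were higher in KK, where 22.0% of all genes tested were. Actg1, Actg2 and Actl6a were lower, where 21.7% of all genes were, and Actl9 did not pass. The median log2 fold change of the 8 was 0.07. The 6 actins together had 2014 and 1992 TPM in WT and 1720 and 1770 in KK. Actl7a, Actl7b and Actl9 together had 587.8 and 555.0 TPM in WT and 631.8 and 657.4 in KK. The latter sum takes Actl7b as the authors' quantification divided it from the gene model Gm26657, described below. These sums were not tested. All 10 genes together took 0.274% and 0.272% of the expected counts in WT and 0.255% and 0.261% in KK.

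**Figure D1:**
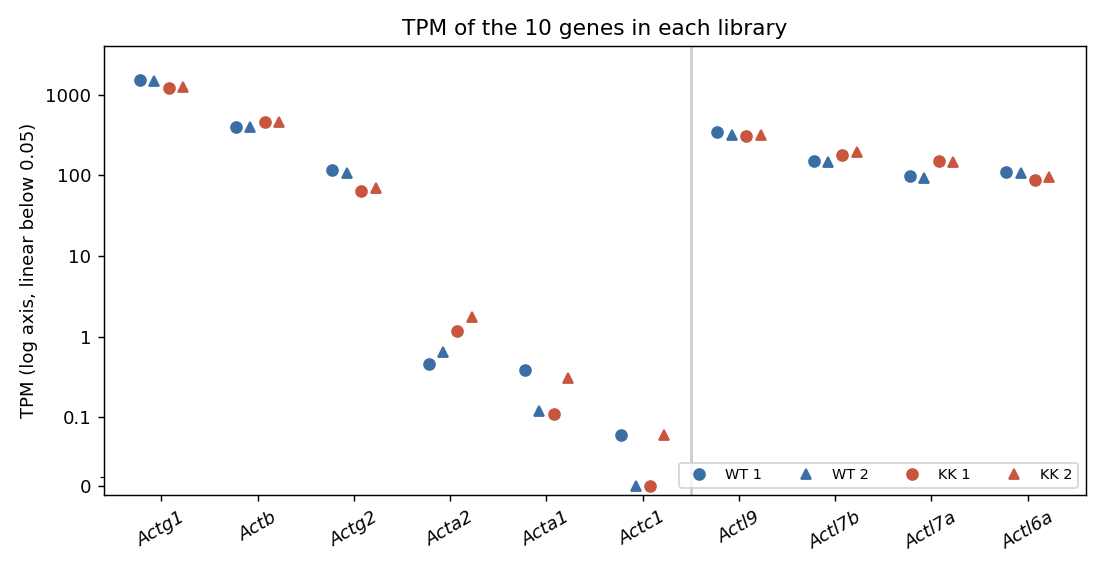
TPM of each gene in each library, on a log axis that is linear below 0.05, with WT in blue, KK in red, circles for replicate 1 and triangles for replicate 2. Actg1 stands at 1199.18 to 1497.25 TPM in the 4 libraries, Actb, Actg2 and the 4 actin-like genes lie between 63.63 and 461.42 TPM, and Acta2, Acta1 and Actc1 stay below 2 TPM.

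By TPM, Actg1 came first in WT, followed by Actb, Actl9, Actl7b, Actg2, Actl6a, Actl7a, Acta2, Acta1 and Actc1. The place of Actb rests on the short effective length of its transcripts, described below. That of Actl7b rests on how reads were divided between it and Gm26657, also described below. In WT the neighbours Actg2 (107.3 and 115.11 TPM) and Actl6a (107.6 and 110.33 TPM) overlapped, so their order was not beyond their spread. In KK, Actl7a stood above Actl6a and Actg2, at 148.62 and 147.83 TPM against 87.27 and 93.78 TPM for Actl6a and 63.63 and 70.11 TPM for Actg2. Among all genes, Actl7a ranked 2044 and 2146 by TPM in WT and 1347 and 1370 in KK, whereas Actg2 went from ranks 1764 and 1860 to 2928 and 2726.

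The cytoplasmic actins moved in opposite directions. Actg1 (ENSMUSG00000062825, chr11:120345690-120348542) had 1497.25 and 1488.42 TPM in WT and 1199.18 and 1236.0 in KK. Both KK libraries lay below both WT libraries, and the gene was still among the most abundant, at ranks 72 and 74 in WT and 98 and 94 in KK. Its level fell from 1880 ± 3.56 to 1530 ± 33.6 CPM (mean ± SD, n = 2 each), 1.23-fold (log2 fold change −0.30 ± 0.03, edgeR adjusted p = 3.6e-08). Actb (ENSMUSG00000029580, chr5:142903115-142906754) had 400.95 and 395.99 TPM in WT and 455.7 and 461.42 in KK, again without overlap. It rose from 228 ± 3.27 to 265 ± 1.68 CPM (SD, n = 2 each), 1.16-fold (log2 fold change 0.21 ± 0.04, edgeR adjusted p = 3.1e-05). The TPM ratio of Actg1 to Actb was 3.73 and 3.76 in WT and 2.63 and 2.68 in KK. The summed level of both was 1898 and 1884 TPM in WT and 1655 and 1697 in KK.

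That ratio depends on how the authors' quantification divided Actb among its annotated transcripts. Actb-201, the transcript of 1920 bases that encodes the 375-residue protein, received 33.4% and 41.2% of the Actb counts in WT and 34.2% and 32.5% in KK. The shorter models Actb-207 (1242 bases, without the 240 bases of exon 3) and Actb-208 (930 bases) received 20.1% to 27.5% and 30.5% to 32.6%. Actb-202, with 536 bases, held 6.88% to 7.89% of the counts but 23.25% to 26.76% of the Actb transcripts after division by length. The effective length of Actb was therefore 717.8 to 743.3 bases, against 1594 to 1611 for Actg1. Actg1 was almost all Actg1-202, which held 96.68% to 97.96% of its transcripts. Between Actg1-202 and Actb-201 alone, the TPM ratio was 24.3 and 19.3 in WT and 16.1 and 17.6 in KK. The count of Actb-201 differed little between genotypes (85.1 ± 13.7 CPM in WT and 88.2 ± 3.80 in KK, SD, n = 2 each). That of Actb-208 was 70.3 ± 0.0588 and 85.4 ± 0.412 CPM. Actb-207 had 53.7 ± 10.5 CPM in WT and 71.3 ± 1.3 in KK, and Actb-202 had 17.8 ± 0.535 and 18.2 ± 0.0541 CPM. Isoform values were not tested.

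Actg2, the enteric smooth muscle actin, had the largest fall of the 10 genes. It is ENSMUSG00000059430 at chr6:83512905-83536265, with 115.11 and 107.3 TPM in WT and 63.63 and 70.11 in KK. Expected counts were 1316 and 1378 in WT and 842 and 854 in KK, so both KK libraries were well below both WT libraries. The level fell from 74.2 ± 0.689 to 44.2 ± 3.21 CPM (SD, n = 2 each), 1.68-fold (log2 fold change −0.75 ± 0.07, edgeR adjusted p = 6.3e-10). Most of these counts were on Actg2-202, 86.2% and 84.7% in WT and 87.8% and 88.9% in KK. This transcript begins with an exon of 33 bases at chr6:83527958-83527990, 8275 bases downstream of the 86-base first exon of Actg2-201 at chr6:83536180-83536265, and both share the 8 coding exons. Actg2-202 had 1134.97 and 1167.65 expected counts in WT and 739.06 and 759.10 in KK. Actg2-201 had 16.75 and 101.17 in WT and 0 in both KK libraries. The WT libraries thus differed from each other on Actg2-201, and no test was made.

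**Figure D2:**
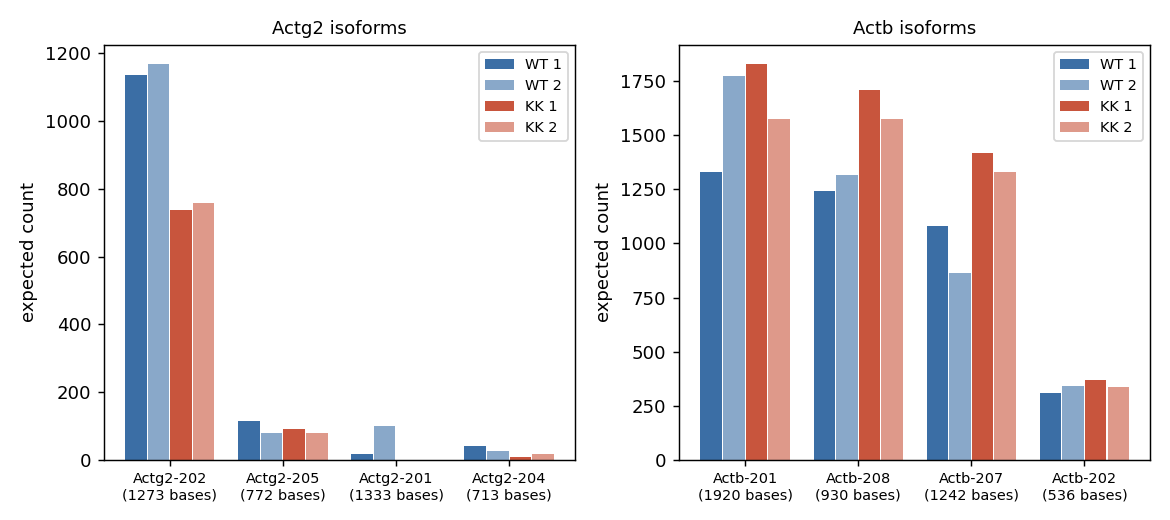
Expected counts of the main annotated transcripts of Actg2 (left) and Actb (right), with 1 bar per library on axes that start at 0. Actg2-202 is lower in both KK libraries, with 739.06 and 759.10 counts against 1134.97 and 1167.65 in WT. Actb counts are spread mainly over 3 transcripts, with fewer on the shorter model Actb-202. In WT 2 Actb-201 has 1774.28 counts and Actb-207 has 865.43.

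The remaining muscle actins were scarce. Acta2, the vascular smooth muscle actin that peritubular cells also make (ENSMUSG00000035783, chr19:34241090-34255590), had 0.46 and 0.64 TPM in WT and 1.18 and 1.74 in KK. Expected counts were 11 and 16 in WT and 32 and 43 in KK, and all 4 libraries were above the level the filter asks for. The KK libraries were both higher, and the gene passed at 2.62-fold (0.741 ± 0.164 and 1.97 ± 0.528 CPM, SD, n = 2 each, log2 fold change 1.39 ± 0.42, edgeR adjusted p = 0.0079). From 27 and 75 counts in all, the exact 95% interval of the ratio was 1.67 to 4.23, which covers counting error only. The call was lost without WT replicate 1 (log2 fold change 1.18, adjusted p = 0.063), without KK replicate 2 (1.09, adjusted p = 0.11) and with DESeq2 (1.40, adjusted p = 0.053). With limma on log2(TPM + 1), which understates the change of low genes, the difference was 0.66 (adjusted p = 0.047). Acta1, the skeletal muscle actin (ENSMUSG00000031972, chr8:123891769-123894751), had 6 and 2 counts in WT and 2 and 5 in KK, for which the ratio is 0.825 and its interval runs from 0.255 to 2.60. Actc1, the cardiac actin (ENSMUSG00000068614, chr2:114047282-114053548), had 1 and 0 counts in WT and 0 and 1 in KK. At this depth no difference in Acta1 or Actc1 was detectable, and neither was tested. The processed pseudogene Actg-ps1 had 0 to 3.51 expected counts per library.

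By TPM, Actg2 stood above Acta2 and above Myh11, Tagln, Cnn1 and Des in each library, but below Myl6. Myl6, a myosin light chain that non-muscle cells also make, had 167.46 and 160.78 TPM in WT and 164.88 and 150.47 in KK. Myh11, the smooth muscle myosin heavy chain, had 0.1 and 0.1 TPM in WT and 0.06 and 0.14 in KK, and the myocardin gene Myocd and the leiomodin gene Lmod1 had no count in either WT library. Tagln (transgelin) had 0.9 and 0.93 TPM in WT and 1.0 and 0.23 in KK. Cnn1 (calponin) had 0.18 and 0.13 TPM in WT and 1.1 and 1.01 in KK, with 9 counts in WT and 66 in KK (ratio 6.92, interval 3.43 to 15.8, edgeR adjusted p = 7.9e-05). These genes were chosen after their values were seen. Of 16 smooth muscle partner genes 10 were tested, 4 rose and 1 fell, with a median log2 fold change of 0.15. For this list and those that follow, 22.0% of all genes tested rose and 21.7% fell. Tpm4 (tropomyosin) rose 3.02-fold, while Mylk, the myosin light chain kinase, fell from 32.7 to 24.4 CPM but did not pass with effective length allowed for. Of 16 markers of peritubular and smooth muscle cells 11 were tested, 5 rose and 2 fell. Their summed level was 68.4 to 72.1 CPM in WT and 59.4 to 68.2 in KK, and without KK replicate 2 the count that rose was 3. Pdgfra (2.87-fold) and Col1a2 (2.86-fold) rose, and Mylk fell. Col1a2 did not pass without WT replicate 2 or KK replicate 2. The part of such cells in the Acta2 difference was not tested. Among 26 striated muscle genes, Myh2, Tnnt1, Tnnt3, Tnni2 and Mybpc3 had no count in any library. Of the 11 striated genes tested, 3 rose and 1 fell, with Mybpc1 1.88-fold higher and Ttn 1.54-fold lower. Without WT replicate 1, WT replicate 2 or KK replicate 1, at most 1 of these rose, and Ttn did not pass without WT replicate 1 or KK replicate 1.

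**Figure D3:**
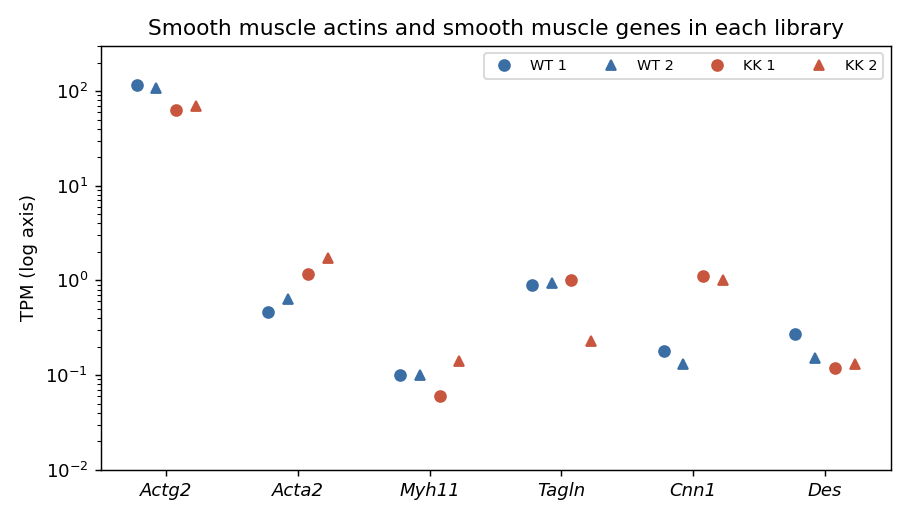
TPM of both smooth muscle actins and of 4 smooth muscle genes in each library, on a log axis, with WT in blue and KK in red. Actg2 lies at 63.63 to 115.11 TPM, while Acta2, Myh11, Tagln, Cnn1 and Des lie below 2 TPM in every library.

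Among the actin-like genes of the testis, Actl7a rose most. It is a gene of 1 exon (ENSMUSG00000070979, chr4:56743413-56744925) that encodes 440 residues, and it had 98.15 and 92.9 TPM in WT and 148.62 and 147.83 in KK. The KK libraries were close to each other and both above WT. Its level rose from 89.5 ± 3.39 to 139 ± 0.872 CPM (SD, n = 2 each), 1.56-fold (log2 fold change 0.64 ± 0.05, edgeR adjusted p = 5e-12). Actl7b, its neighbour (ENSMUSG00000070980, chr4:56740005-56741443, 1 exon, 418 residues), had 148.85 and 146.28 TPM in WT and 180.01 and 192.71 in KK. It rose from 130 ± 1.45 to 164 ± 7.49 CPM (SD, n = 2 each), 1.27-fold (log2 fold change 0.34 ± 0.04, edgeR adjusted p = 2e-07). The value of Actl7b is uncertain because the gene model Gm26657 (chr4:56740070-56741377) lies within it on the other strand and the kit does not mark strand. Gm26657 received 4647.76 and 4962.67 expected counts in WT and 7492.53 and 6802.97 in KK, and Actl7b 2301.24 and 2403.33 in WT and 3189.47 and 3113.03 in KK. The locus as a whole had 395 and 394 CPM in WT and 532 and 540 in KK, 1.36-fold higher (log2 fold change 0.44 ± 0.03, edgeR adjusted p = 2.6e-11). Actl7b had been given 29.9% to 33.1% of it. This summed value was added after the data were seen.

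Actl9 (ENSMUSG00000092519, chr17:33432896-33434268, 1 exon, 415 residues) was the most abundant of the 4 actin-like genes by TPM. That place depends on the division of reads between Actl7b and Gm26657. Gm26657 was given 340.53 and 341.99 TPM in WT and 478.76 and 476.97 in KK. Actl9 had 340.81 and 315.78 TPM in WT and 303.19 and 316.82 in KK, and the genotypes overlapped. Its level was 271 ± 14.3 CPM in WT and 257 ± 7.28 in KK (SD, n = 2 each), and the difference did not pass (log2 fold change −0.08 ± 0.04, edgeR adjusted p = 0.11). It passed as lower without WT replicate 2 (−0.14, adjusted p = 0.03) or without KK replicate 2 (−0.12, adjusted p = 0.018), and was 0.00 with library size scaling. The TPM ratio of Actl9 to Actl7a was 3.47 and 3.40 in WT and 2.04 and 2.14 in KK, and that of Actl7b to Actl7a was 1.52 and 1.57 in WT and 1.21 and 1.30 in KK. The ratio with Actl7b also depends on its division from Gm26657. Of 18 spermatid genes 7 rose and 9 fell, against 22.0% and 21.7% of all genes tested. Their part in these 3 values was not tested.

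The starts of Actl7b and Actl7a face away from each other, 1970 bases apart. The sequences before the starts of the 3 testis genes are shown because each holds the 8 letters TGATGTCA on one of its strands, in capitals, close to the start. TGATGTCA is a relative of TGACGTCA, the cyclic AMP response element known from many genes of male germ cells. The windows are RefSeq's, on GRCm38.p6, cut where the GENCODE gene begins, and they lie at chr4:56743172-56743412 (Actl7a, plus strand), chr4:56741444-56741675 (Actl7b, minus strand) and chr17:33432649-33432895 (Actl9, plus strand).
Actl7a: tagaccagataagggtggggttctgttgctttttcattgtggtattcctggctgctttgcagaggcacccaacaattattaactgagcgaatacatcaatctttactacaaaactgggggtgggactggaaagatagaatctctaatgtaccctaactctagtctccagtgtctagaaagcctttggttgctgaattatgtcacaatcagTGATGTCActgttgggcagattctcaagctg
Actl7b: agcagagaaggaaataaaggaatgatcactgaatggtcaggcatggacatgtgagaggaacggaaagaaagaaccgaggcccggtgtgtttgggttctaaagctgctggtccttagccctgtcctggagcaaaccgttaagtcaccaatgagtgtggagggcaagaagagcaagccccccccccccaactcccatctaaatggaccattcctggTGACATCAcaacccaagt
Actl9: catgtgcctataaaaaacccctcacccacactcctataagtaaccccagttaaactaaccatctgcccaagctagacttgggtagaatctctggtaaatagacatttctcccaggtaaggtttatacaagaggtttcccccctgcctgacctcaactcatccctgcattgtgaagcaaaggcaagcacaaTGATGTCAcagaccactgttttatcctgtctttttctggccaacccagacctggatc
TGATGTCA lies 40 bases before the RefSeq start of Actl7a, 36 before that of Actl7b, where it is read on the other strand, and 60 before that of Actl9. The motif was chosen after these windows had been read. With both strands searched in windows of 300 bases, TGATGTCA was in 1189 of 32851 RefSeq windows (3.62%), TGACGTCA in 1.79% and the shorter TGACG, which TGACGTCA contains, in 20.8%. TGACGTCA and TGACG were in none of the RefSeq windows of the 8 members that have one, and those of Acta2, Actc1 and Actl6a lie mostly or wholly inside the GENCODE gene. A match is a description of letters and no site.

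Serum response factor (SRF) controls actin genes through the CArG box, and its cofactor MRTF is held back by actin monomers. The CArG box was found in 535 of the 32851 windows (1.63%), and in those of Actg1, Acta1 and Actc1, at 90, 73 and 47 bases before the RefSeq start. The window of Actc1 lies wholly inside the GENCODE gene. Actb and Actg2 had no RefSeq window and were not searched. The window of Acta2 had no match, but it lies mostly inside the gene. Actg1 is shown because it is the member with the highest level, at chr11:120348551-120348610 on the minus strand, with the box in capitals.
Actg1: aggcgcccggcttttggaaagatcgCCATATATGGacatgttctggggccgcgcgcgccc
Of 15 tested genes for SRF, its cofactors and known targets 9 rose and 2 fell, against 22.0% and 21.7% of all genes tested. Their median log2 fold change was 0.68. Srf itself, chosen after its value was seen, rose from 27.6 to 38.2 CPM (1.38-fold, edgeR adjusted p = 0.00011), and Mrtfa fell from 86.6 to 70.6 CPM. By TPM the genotypes overlapped for Srf, with 15.85 and 24.31 in WT and 23.64 and 28.0 in KK. Flna, an actin crosslinker, rose from 2.21 to 7.38 CPM, and Actn1, an alpha-actinin, from 0.968 to 3.10 CPM. Tln1 (talin) fell from 52.5 to 42.4 CPM. With effective length allowed for, 5 of the 15 rose, and Flna, Actn1, Tln1 and Mrtfa did not pass. The value of Srf in that setting is not reported here. Of 14 immediate early genes tested, 8 rose, and their summed level was 147 to 152 CPM in WT and 207 to 211 in KK.

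Actl6a, the nuclear member (ENSMUSG00000027671, chr3:32706298-32726973), had 110.33 and 107.6 TPM in WT and 87.27 and 93.78 in KK, without overlap. It fell from 135 ± 0.347 to 113 ± 4.15 CPM (SD, n = 2 each), 1.20-fold (log2 fold change −0.26 ± 0.04, edgeR adjusted p = 1.9e-05). Actl6a-201 held 87.90% to 91.08% of its transcripts in each library. The 3′ end of the gene overlaps Mrpl47 on the other strand, which did not pass (log2 fold change −0.09 ± 0.07, adjusted p = 0.3). Of 51 tested genes of the SWI/SNF, INO80 and TIP60 complexes, 30 fell and 5 rose, against 21.7% and 22.0% of all genes tested. Their median log2 fold change was −0.24. Trrap, the large scaffold of the TIP60 complex, fell from 117 to 68.8 CPM (1.70-fold), and Mbtd1 from 145 to 92.3 CPM (1.57-fold). Smarca4, an ATPase of SWI/SNF chosen after its value was seen, fell from 363 to 262 CPM (1.39-fold, adjusted p = 6.7e-11). Arid1b rose from 4.20 to 10.4 CPM and Dpf3 from 4.11 to 6.54 CPM, though Dpf3 did not pass with DESeq2 or with effective length allowed for. The neuronal relative Actl6b had 3 counts in WT and 4 in KK.

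The other actin-related genes also moved in both directions. Of 16 found, 14 were tested, 6 rose and 4 fell, against 22.0% and 21.7% of all genes tested. Their median was 0.07 on the log2 scale. The testis gene Actrt3 rose from 13.8 ± 1.08 to 26.3 ± 1.15 CPM (SD, n = 2 each), 1.90-fold (edgeR adjusted p = 1.9e-08), and Actl10 from 6.91 to 11.5 CPM (1.66-fold). Actl11 fell from 150 to 123 CPM (1.22-fold), and Actr6, whose protein works in a chromatin remodeler, from 60.2 to 45.1 CPM (1.33-fold). Actr2 and Actr3, which form the core of the ARP2/3 complex that starts branched filaments, rose 1.45-fold and 1.56-fold. Actrt2, another testis gene, rose 1.27-fold. The last 3 were chosen after their values were seen.

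**Figure D4:**
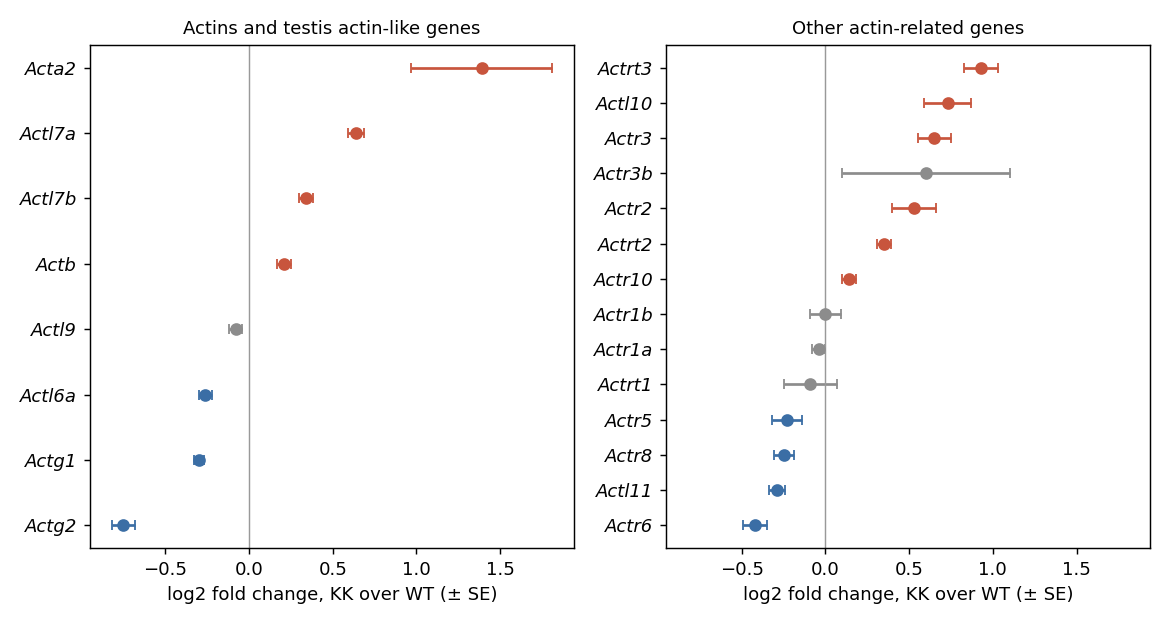
Log2 fold change of KK over WT with its SE for the 8 tested genes (left) and 14 other actin-related genes (right), with red for higher, blue for lower and grey for genes that did not pass. Of the 8 genes on the left Acta2 has the widest error, ± 0.42, and Actl7a (0.64) and Actg2 (−0.75) lie on opposite sides of 0.

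Proteins that work on actin filaments gave mixed counts, to be set beside 22.0% higher and 21.7% lower among all genes tested. Of 19 tested genes that bind monomers or turn filaments over, 6 rose and 3 fell, with a median of 0.02. Wdr1 rose from 27.9 to 41.6 CPM and Tmsb4x, a thymosin that holds monomers, from 9.69 to 14.4 CPM. Pfn1, a profilin, fell from 80.2 to 67.3 CPM, and Gmfb from 155 to 124 CPM, though Gmfb was slightly higher (log2 0.05) once effective length was allowed for. Without WT replicate 2 only 3 of these genes rose, and without KK replicate 1 the number that fell was 5. Of 23 tested genes that nucleate filaments, 3 rose and 6 fell, with a median of −0.10. Arpc5, a subunit of ARP2/3, rose 1.76-fold and the formin gene Diaph3 1.71-fold, while the formin genes Daam2 (1.89-fold) and Fmn2 (1.73-fold) fell. Without WT replicate 2 the number of these that fell was 4, and with effective length allowed for it was 2, with Diaph3, Daam2 and Fmn2 no longer passing. Of 12 tested capping and severing genes 3 rose and 1 fell, with a median of 0.04. Capza3, the capping protein subunit of male germ cells, rose from 60.3 ± 0.729 to 96.3 ± 4.50 CPM (SD, n = 2 each, 1.60-fold, edgeR adjusted p = 7.7e-11) and Tmod2 1.28-fold. Capza1, its widely expressed relative, fell from 678 to 589 CPM. Without WT replicate 2 the counts were 1 higher and 2 lower, and without KK replicate 2 they were 2 and 2.

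The sperm head cytoskeleton list, to which ACTL7A and ACTL9 belong by function, had 24 tested genes. Of them 13 rose and 6 fell, against 22.0% and 21.7% of all genes tested, with a median log2 fold change of 0.20. Spata46 rose from 31.4 to 60.1 CPM (1.91-fold) together with Actrt3 and Capza3. Ccin, which encodes the head protein calicin and was chosen after its value was seen, rose from 68.0 to 104 CPM (1.52-fold, adjusted p = 2e-10). Spem2 fell from 166 to 93.4 CPM (1.78-fold) and Gopc, a Golgi protein needed for the acrosome, from 77.2 to 47.9 CPM (1.61-fold). Without WT replicate 2 the number that fell was 4.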

How the data were processed

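Libraries of 2 WT and 2 KK samples were made from total RNA with an unstranded kit, per the labels' protocols. Bowtie and the GRCm38 build are named in the submitters' processing notes; the quantifier is not given in the sources used here, nor is its annotation. Per the file headers, the authors deposited TPM, expected counts and effective lengths in bases for each gene. For each isoform they deposited TPM, expected counts and its percent of the gene's transcripts. GENCODE M21 held 55104 of 55364 identifiers.

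Expected counts were rounded and tested with edgeR 4.0.16 in R 4.3.3 (TMM factors, default expression filter, quasi-likelihood fit on genotype, Benjamini-Hochberg adjustment over 16571 genes, threshold 0.05). CPM are on the TMM scale, and the SE comes from the log2 fold change over the root of F. Exact 95% intervals of count ratios cover counting error only. In 3 simulated sets with 200 changed genes among 16571, the test called 33.3% of the genes that had been changed 1.25-fold and 54.7% of those changed 1.5-fold. It called 80.7% for 2-fold and 98.7% for 4-fold, and 4.64% of its calls were false. In the data 43.7% of the genes passed, a far larger part than was changed in these sets. These rates therefore may not hold for the data. Alternatives were other scalings, DESeq2 1.42.0, limma 3.58.1 on log2(TPM + 1) and log2(TPM + 0.1), other filters, a replicate block, an effective length offset and each library left out.

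The members and lists were chosen with earlier results of these data known. Named were all 10 members, Ddx4, pseudogenes with counts and, per list, up to 2 genes that rose and 2 that fell by largest change with a mean of at least 1 CPM; names outside this rule are marked. Some genes that the rule takes are not reported here. Nothing in the labels says that libraries came from separate animals, so p-values measure only a spread that may be technical. RefSeq promoter windows were found for 8 of the 10 members, all but Actb and Actg2.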

Additional observations from a re-analysis of the deposited data

How the results depend on the processing

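Actb, Actg1, Actg2, Actl6a, Actl7a and Actl7b kept direction and call in 14 of 14 settings, with log2 fold changes of 0.19 to 0.30, −0.33 to −0.22, −0.83 to −0.67, −0.31 to −0.18, 0.59 to 0.72 and 0.29 to 0.42. Acta2 was 1.40 with DESeq2 and 1.25 with limma on log2(TPM + 0.1), no longer past the threshold, 0.66 with limma on log2(TPM + 1), still past it, and 1.09 to 1.63 with 1 library left out; its counts limit its precision. Actl9 was 0.00 with library size scaling and −0.14 to −0.03 with 1 library left out. Replicate numbers did not pair the libraries (r = −0.082 across 16571 genes, which are not independent replicates); with the replicate block 3675 genes were higher and 3634 lower, with 4 and 3 members.

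Over all genes, 2405 were higher with DESeq2, 2275 with limma on log2(TPM + 1) and 2209 on log2(TPM + 0.1), and 1551 and 1549 were lower in the latter pair and 2075 with the effective length offset. With library size scaling 5 nucleation and 8 chromatin genes were higher and 0 striated genes lower. With DESeq2 3 monomer binding and 0 striated genes were higher and 0 striated genes lower. With limma on log2(TPM + 1) 3 monomer binding genes and 1 chromatin gene were higher, 2 capping genes were lower, and 0 nucleation, smooth muscle, striated and SRF genes were lower. With limma on log2(TPM + 0.1) 3 monomer binding, 1 chromatin, 0 striated and 5 SRF genes were higher, and 0 nucleation, smooth muscle, striated and SRF genes lower. With the effective length offset 3 monomer binding, 2 chromatin, 1 striated and 5 SRF genes were higher, and 2 nucleation, 0 smooth muscle and 0 SRF genes lower. With 1 library left out, monomer binding counts were 3 to 5 higher and 3 to 5 lower, capping counts 1 to 2 and 1 to 2, and striated counts 0 to 2 and 0 to 1. Gmfb was 0.05 with both limma fits and the effective length offset. Of 756 values of 54 named context genes, 670 kept direction and call, 83 lost the call and 3 reversed; the causes were not tested.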
